A study of Mus musculus with 8 samples.

Results

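The mouse array carried 1104 noncontrol probes whose names begin with humanlincRNA, out of 60914 noncontrol probes considered. They were chosen by that name alone, with no measured value in the choice. Each name holds a number followed by + or -, and the ending shared by all of them is left off here. The names give 557 numbers, of which 547 had both a plus and a minus probe, 2 a plus probe alone and 8 a minus probe alone. The files do not say what the sign stands for, so the probes are called plus and minus. They pair no humanlincRNA probe with a gene symbol, a position in the genome or a nucleotide sequence, so every member is reported under its probe name.

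Long intergenic noncoding RNAs are transcribed from stretches between protein-coding genes, and many are capped, spliced and polyadenylated like messenger RNAs without coding for a protein. Their sequences are often poorly conserved between mammals even where the position of the transcript is kept. Well-studied examples act in very different ways. Xist coats and silences an X chromosome, Malat1 is an abundant nuclear RNA, and Braveheart and Fendrr take part in the development of the mouse heart. Whether any humanlincRNA probe reads one of these transcripts was not analysed here.

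The samples were hearts of male wild-type C57BL/6J mice aged 8 to 10 weeks and weighing 24 to 26 g. In 4 mice the descending aorta had been tied against a 26-gauge needle, which narrows it and loads the heart with pressure, and 4 mice had had a sham operation. The source label places the banded hearts 4 weeks after surgery. Total RNA was labelled with Cy3 by random priming and hybridised to 1 single-colour array per mouse. Mice are numbered 1 to 4 within each group, and the labels say nothing more about how separate they were, so every p-value measures the spread between these arrays. The array number, 4 in each group, limits the precision. The RNA came from heart tissue with all its cell types. Markers of heart cell types and of hypertrophy could not be read without gene names and were not analysed here.

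All 8 arrays lay on 1 slide in 2 rows. In row 1 lay 3 sham arrays (2 to 4) together with banded 1, and in row 2 lay 3 banded arrays (2 to 4) together with sham 1. In each row the arrays of places 1 and 2, and those of places 3 and 4, lay close together. The spread of log2 differences over 15118 bright probes was 0.116 to 0.160 in these 4 pairs, against 0.313 to 0.631 in the other 24 pairs of arrays, which include the neighbours in places 2 and 3. For comparison, copies of a probe printed on the same array gave a spot noise of 0.0870 for such a difference. Among the close pairs, 2 join a banded to a sham heart (banded 1 to sham 2, banded 4 to sham 1), 1 joins banded 2 to banded 3 and 1 joins sham 3 to sham 4. Over the 246 humanlincRNA probes detected on every array the pairs were less distinct, with spreads of 0.230 to 0.453 in the close pairs and 0.229 to 0.587 in the rest. Results for surgery are therefore given with the slide row beside them.

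A probe was counted as detected on an array when the scanner software called its spot well above background. Of the 1104 members, 526 were detected on at least 1 array and 578 (52.4%) on none. Detection on all 8 arrays was found for 246 members (22.3%). Among the 59078 probes that carry no lincRNA name, 49.2% were detected on all 8 arrays and 28.4% on none. Members detected on 1 to 3 arrays numbered 163 (14.8%), and those on 4 to 7 arrays 117 (10.6%).

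On single arrays the detected share of members was 37.6%, 31.3%, 24.9% and 32.5% for banded 1 to 4. It was 32.6%, 33.2%, 32.1% and 36.9% for sham 1 to 4. Banded 3 had the lowest share and banded 1 the highest, so the surgery groups overlapped. The other probes showed the same extremes, 52.9% on banded 3 and 63.9% on banded 1. As background, 1 to 8 of the 308 spots of the negative control were called well above background per array. Of 15 probes named as negatives, 1 was called on banded 1, 1 on sham 4 and 0 on the other arrays.

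Tests were run on probes detected on at least 4 of the 8 arrays, which kept 363 of the 1104 members (32.9%). Of the probes with no lincRNA name 59.5% passed. The mouse lincRNA lists on the same array gave a share near that of the human lists, 211 of 649 probes (32.5%), and the mouse exon probes gave 31 of 83 (37.3%). Values just outside and just inside the limit were close. The 19 members detected on 3 arrays had mean signals of 13.5 to 25.1 scanner units with a median of 16.6, and the 23 detected on 4 arrays had 14.1 to 27.1 with a median of 18.6. None of the 23 owed all 4 detections to a single surgery group.

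Detection alone separated no member by surgery completely. No member was detected on all 4 arrays of either group and on none of the other, a pattern shown by 5 probes of all kinds for banded and 16 for sham. All 4 banded arrays detected 255 members (23.1%, beside 49.6% of all probes) and all 4 sham arrays 302 (27.4%, beside 52.8%). More sham than banded arrays detected 148 members (13.4%, against 11.1% of all probes), and more banded than sham arrays detected 89 (8.06%, against 7.50%). Detection on all 4 sham and at most 1 banded array was seen for 4 members, or 0.362% of members beside 0.304% of all probes. The reverse pattern was seen for 0 members, beside 0.0969% of all probes. The 4 members, looked up after their values were seen, were humanlincRNA1249-, humanlincRNA2294-, humanlincRNA2300- and humanlincRNA2366-, all minus probes with low mean levels of −3.51 to −3.25 on the scale given next.

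Levels are given as the log2 processed signal minus the 75th percentile of the noncontrol probes on the same array, so that 0 marks that percentile. Over all 1104 members the mean level over the 8 arrays had a median of −4.89, with quartiles at −5.56 and −2.82. The commonest band was −6 to −5, with 527 members (47.7%, against 24.5% of the other noncontrol probes), and each higher band of 1 log2 unit up to 3 held fewer members. Only 78 members (7.07%) lay above 0, against 24.9% of all probes. The 363 tested members had a median of −1.83, below the −0.57 of all tested probes. Their median signal per array was 36.7 to 68.2 units, while that of the untested members was 3.48 to 4.16 units. The lowest signal that any array called well above background was 15.7 to 19.2 units, so the levels of most untested members have no order.

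A small tail was bright, with 15 members more than 16-fold above the 75th percentile. The signal of a probe depends on its own binding as well as on the amount of RNA, so the order of probes is not an order of transcripts. The brightest probe was humanlincRNA2296+, with a mean level of 7.59. Its levels were 7.76, 7.61, 7.67 and 7.88 in banded hearts 1 to 4 and 6.69, 7.63, 7.71 and 7.79 in sham hearts 1 to 4. Sham 1 was the low array and the groups overlapped.

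The other bright members also overlapped between the groups. For humanlincRNA2159- (mean 7.20) the levels were 6.96, 7.24, 7.51 and 7.28 in banded and 7.39, 6.96, 7.06 and 7.19 in sham hearts. For humanlincRNA2199+ (mean 7.08) they were 7.44, 7.02, 6.05 and 7.43 in banded and 6.52, 7.37, 7.37 and 7.43 in sham hearts. Low values of this probe came from banded 3 and sham 1. The probe humanlincRNA2330+ (mean 6.94) read 6.68, 5.86, 6.60 and 7.11 in banded and 8.27, 6.90, 6.91 and 7.19 in sham hearts, and humanlincRNA0318- (mean 6.69) stayed between 6.36 and 6.95 on all 8 arrays. None of the 5 passed the surgery test in limma, with adjusted p-values of 0.586 to 0.900.

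For 3 of these 5 members the other probe of the same number was hardly detected. The probe humanlincRNA2159+ was detected on 0 arrays, while humanlincRNA2296- and humanlincRNA2330- were each detected on 1. By contrast humanlincRNA2199- was detected on 8 arrays at a low mean level of −2.31, and humanlincRNA0318+ on 8 arrays at 5.19.

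Where a plus or minus probe passed the detection limit, the other probe of its number more often failed than passed it. Most members of either sign failed it. Plus probes passed the detection limit in 181 of 549 cases and minus probes in 182 of 555, close to the same share for both signs. Among the 547 numbers with both probes, both passed in 76, the plus probe alone in 104, the minus probe alone in 104 and neither in 263. The plus probe passed for 42.2% of the 180 numbers whose minus probe passed, and for 28.3% of the 367 whose minus probe did not. So a plus probe passed more often where its minus probe passed. The counts of extreme cases that follow were not set against those of unrelated probes. The plus probe was detected on all 8 arrays and the minus on none for 57 numbers, the reverse held for 49, and both were detected on all 8 arrays for 38. Neither probe was detected on any array for 163 numbers.

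For the 76 numbers with both probes tested, levels of the plus and minus probe over the 8 arrays had a median correlation of 0.12, with a range of −0.76 to 0.87. The correlation was above 0 for 44 numbers and above 0.8 for 3, which were the numbers of humanlincRNA1050, humanlincRNA2010 and humanlincRNA0520. These values are descriptions over 8 arrays that share the slide, its rows and the group sizes. The pair humanlincRNA1050 had the highest of these values. The minus probe read 2.10, 1.44, 0.07 and 1.30 in banded and −0.14, 1.77, 1.93 and 1.95 in sham hearts, while the plus probe read −0.32, −0.54, −0.78 and −0.27 in banded and −0.68, −0.27, −0.35 and −0.36 in sham hearts. Both were low on banded 3 and sham 1.

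Surgery gave no called difference among the members. In limma with Benjamini-Hochberg adjustment over all 35782 tested probes, 0 of the 363 tested members passed an adjusted p of 0.05, and the background share was 0%, since no probe of any kind passed. The smallest adjusted p was 0.586 among members and 0.0896 among all tested probes. At an unadjusted p under 0.05, 8 members (2.20%) read higher in banded hearts, beside 3.21% of all tested probes. Lower in banded hearts were 35 members (9.64%), beside 3.86% of all tested probes. That count depended on the arrays and settings used, with 9 when close arrays of a group were averaged, 13 without sham 4, 17 under the normexp background correction and 97 with array weights.

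The members' estimates lay mostly below 0. The banded minus sham log2 difference was below 0 for 267 of 363 members (73.6%) and for 49.7% of all tested probes. Its median was −0.17 among members and 0.003 among all tested probes, and the median standard error of a single member's difference was 0.22. Single probes were tested, and the shift as a whole was not tested. Fewer cells of a type and less RNA per cell cannot be told apart in whole heart tissue. The members also lay lower in slide row 2, which held most of the banded arrays. Their median of row 2 minus row 1 was −0.16, with 70.0% below 0. With the slide row as a term the members' surgery median was −0.145. The mouse lincRNA lists had nearly the same surgery median as the human lists without that term, −0.18, with 73.0% below 0, so the shift was not particular to the human lists.

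Per array, the median level of the 363 members was −1.90, −2.0008, −1.96 and −1.83 in banded hearts 1 to 4 and −1.78, −1.76, −1.79 and −1.70 in sham hearts. The groups did not overlap, with means of −1.92 ± 0.076 and −1.76 ± 0.040 (SD, n = 4 each). Restricted to the 246 members detected on every array, the medians were −0.99, −1.09, −1.10 and −0.98 in banded and −1.01, −0.88, −0.88 and −0.81 in sham hearts, and the groups overlapped through sham 1.

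By brightness, the members' medians of the surgery difference were −0.14 for members with mean levels below −2, −0.18 between −2 and 0 and −0.25 above 0, where 64 of 78 members lay below 0. The remaining probes had medians of −0.04, −0.02 and 0.05 in the same bands. With the alternative normexp background correction on median spot signals, the members' median was −0.015 and that of the remaining probes 0.033. That correction adds an offset of 50 units to every signal, which by construction makes log2 differences of dim probes smaller. How much of the change came from the offset was not tested. Without the detection limit, which brings in the undetected members, the members' median was 0.013. With the close pairs of arrays as a block the members' median was −0.03, where only the 2 pairs that join a banded to a sham heart bear on the estimate.

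Within each slide row the members' median stayed below 0. It was −0.084 in row 1, where 1 banded stood against 3 sham arrays, and −0.187 in row 2, where 3 banded stood against 1 sham array. The shares of members below 0 were 59.5% and 65.0%. Remaining probes had medians of −0.016 and 0.018 in the rows. Each of these values rests on a single array on one side.

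Groups that did not overlap were found for 5 members with higher banded levels (1.38%, beside 1.26% of all tested probes) and 16 with lower banded levels (4.41%, beside 2.09%). A difference of at least 2-fold was reached by 0 members upward, beside 1.03% of all tested probes. Downward it was reached by 3 (0.826%, beside 0.470%), which were humanlincRNA2294-, humanlincRNA2361- and humanlincRNA0174-. Described next are the 5 members in each direction with the smallest p among those whose groups did not overlap. None of them passed the test, and limma's adjusted p was 0.586 for each. Under normexp all 10 kept their direction at a smaller size, with differences of 0.14 to 0.32 for the 5 higher and −0.63 to −0.15 for the 5 lower members.

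The 5 members with higher banded levels were all plus probes. The probe humanlincRNA0691+ read −2.78, −2.78, −2.72 and −2.78 in banded and −4.13, −2.93, −3.55 and −3.14 in sham hearts, a difference of 0.67 ± 0.24 (SE). Banded arrays were nearly equal and sham 1 was the low one. Without sham 1 the estimate was 0.44, and under normexp it was 0.18. It was detected on 3 banded and 2 sham arrays, so part of the sham values lie under the detection limit. The probe humanlincRNA0857+ read −2.34, −2.17, −2.03 and −2.15 in banded and −4.33, −2.91, −2.91 and −2.36 in sham hearts, a difference of 0.95 ± 0.36. Sham 1 was again the low array, and without it the estimate was 0.55. Under normexp it was 0.32.

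The remaining higher members differed by less. The probe humanlincRNA1230+, detected on all 8 arrays, read −1.98, −1.76, −1.56 and −1.82 in banded and −2.23, −1.98, −2.32 and −2.23 in sham hearts. Banded 1 and sham 2, neighbours on the slide, nearly touched, and the difference was 0.41 ± 0.15, or a ratio of 1.33. With the close pairs as a block it was 0.21. For humanlincRNA1953+ the levels were −2.70, −2.78, −2.92 and −2.87 in banded and −3.28, −3.29, −3.005 and −3.09 in sham hearts, a difference of 0.35 ± 0.14. For humanlincRNA0212+ they were −2.08, −1.89, −2.20 and −2.14 in banded and −2.36, −2.51, −2.41 and −2.27 in sham hearts, a difference of 0.31 ± 0.14. In both the gap between the groups was smaller than the spread within them. The minus probes humanlincRNA0857-, humanlincRNA1953- and humanlincRNA0212- were detected on 1, 0 and 0 arrays, while humanlincRNA0691- was detected on 7 and humanlincRNA1230- on 8.

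Among members with lower banded levels, humanlincRNA0563- had the smallest unadjusted p in limma, 0.00269. It read −2.17, −2.46, −2.35 and −2.28 in banded and −1.87, −1.83, −1.58 and −1.72 in sham hearts. Every banded array lay below every sham array, and the difference of −0.56 ± 0.14 is a ratio of 0.676. Within row 1 the difference was −0.46 and within row 2 −0.49. It was −0.38 with the close pairs as a block and −0.20 under normexp. Its plus probe was detected on 0 arrays.

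The widest difference of these members belonged to humanlincRNA0174-. It read −0.46, −1.51, −2.01 and −0.94 in banded and −0.22, −0.45, −0.04 and −0.12 in sham hearts, a difference of −1.02 ± 0.30. Banded 1 at −0.46 lay beside sham 2 at −0.45, its neighbour on the slide, and banded 3 was lowest. The estimate was −0.25 within row 1 and −1.27 within row 2. With the slide row as a term it was −0.76, with the close pairs as a block −0.36, and under normexp −0.63.

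The probe humanlincRNA1093+ read −2.86, −3.41, −3.79 and −2.97 in banded and −2.36, −2.68, −2.56 and −1.99 in sham hearts, a difference of −0.86 ± 0.24. It was detected on 2 banded and 4 sham arrays, and the difference was −0.39 with the close pairs as a block and −0.15 under normexp. The probe humanlincRNA0513- was steadier, at −1.55, −1.35, −1.33 and −1.26 in banded and −1.02, −0.97, −0.94 and −0.98 in sham hearts. Sham hearts were nearly equal here, and the difference of −0.39 ± 0.13 was −0.58 within row 1 and −0.29 within row 2. For humanlincRNA0938- the levels were −2.17, −2.26, −2.12 and −2.51 in banded and −2.11, −1.76, −1.71 and −1.46 in sham hearts, a difference of −0.50 ± 0.18. Sham 1 at −2.11 lay just above banded 3, an array of the same slide row, at −2.12. The other probe of each of these 5 numbers was detected on 0 arrays.

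The surgery estimates of a number's plus and minus probes showed no common slope. Of the 76 numbers with both tested, 42 had estimates of the same sign, 40 of them below 0. Pearson's r of the plus and minus differences was −0.16 and Spearman's rho −0.11 over these 76 numbers, given as a description because all of them share the arrays. For humanlincRNA0479 alone both probes had an unadjusted p under 0.05, in opposite directions. The plus probe read −3.20, −2.88, −1.98 and −1.83 in banded and −3.58, −3.75, −3.30 and −3.12 in sham hearts, a difference of 0.97. The minus probe read −2.57, −2.66, −3.04 and −2.93 in banded and −2.52, −2.60, −2.12 and −1.88 in sham hearts, a difference of −0.52. Neither passed the adjusted test, and banded and sham arrays overlapped for both.

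Some members passed for surgery in 2 alternative fits. Leaving out banded 1 and sham 1 gave 9 called members (2.48%, all lower in banded hearts), beside 10.7% of all tested probes. Row and surgery cannot be told apart in that comparison, and 5 members were also among the 15 called between the rows with all 8 arrays (55.6% of the 9 and 33.3% of the 15). The same overlap over all tested probes was not analysed here, so these shares stand without a background. Array weights in limma, which were lowest for banded 1 and sham 1, gave 17 members (4.68%), beside 8.60% of all tested probes. Of these 17, 16 were lower and 1 higher in banded hearts.

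Between slide rows 15 members passed limma's adjusted p of 0.05 (4.13%, beside 19.7% of all tested probes). Lower in row 2 were 13, while 2 were higher. The members' median difference of row 2 minus row 1 was −0.16, beside −0.006 for all tested probes. With each close pair of arrays averaged, which leaves 2 values per row, 4 members passed (1.102%, beside 3.99%), namely humanlincRNA0966-, humanlincRNA1050-, humanlincRNA1364- and humanlincRNA2237+.

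The largest row difference among the named members was that of humanlincRNA0966-. It read −1.21, −2.69, −2.71 and −2.76 in banded and −3.002, −1.17, −0.39 and −1.22 in sham hearts. All 4 arrays of row 1 lay above all 4 of row 2, whatever the surgery. The row difference was −1.79 ± 0.20 (SE), with an adjusted p of 0.000344 in limma and 0.00973 with close pairs averaged. Its surgery estimate was −0.90, and with the row as a term it was −0.0018, from −0.29 within row 1 and 0.28 within row 2. Its plus probe, detected on 8 arrays, lay between −0.02 and 0.71.

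Other members called between rows differed less. The probe humanlincRNA0312+ read 1.37, 0.74, 0.29 and 0.43 in banded and 0.44, 1.104, 1.30 and 1.43 in sham hearts, a row difference of −0.82 with an adjusted p of 0.00298. For humanlincRNA1037+ the levels were 0.21, −0.52, −0.83 and −0.37 in banded and −0.75, 0.03, 0.12 and 0.30 in sham hearts, a row difference of −0.79 with an adjusted p of 0.00401. In both probes all 4 arrays of row 1 lay above all 4 of row 2. Higher in row 2 were humanlincRNA2163+ by 0.44 and humanlincRNA0406+ by 0.55, with adjusted p-values of 0.0301 and 0.0352. The next in this direction, humanlincRNA0667+, had a difference of 0.42 and an adjusted p of 0.0671. Of the 15 members called between rows, 1 also had an unadjusted surgery p under 0.05 in limma, as did 43 of all 363 tested members. Of these 43, 10 also had an unadjusted row p under 0.05. At that row p, 13 members (3.58%) were higher in row 2, beside 18.8% of all tested probes. Lower in row 2 were 43 members (11.8%), beside 13.8%.

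Pooled over all levels, the tested members varied over the 8 arrays about as much as other probes. Their SD had a median of 0.345, with a range of 0.117 to 1.32, and that of all tested probes a median of 0.313. Members with mean levels above 0 had a median SD of 0.340, beside 0.281 for the remaining probes and 0.355 for the mouse lists. Between −2 and 0 the medians of members and remaining probes were 0.307 and 0.289, and below −2 they were 0.389 and 0.404. The most variable were dim. The probe humanlincRNA2338+ read −3.46, −1.36, −5.06 and −3.09 in banded and −3.95, −4.02, −5.60 and −2.83 in sham hearts and was detected on 4 arrays. With humanlincRNA2350- and humanlincRNA2038- it had SDs of 1.32, 1.27 and 1.19, which were 0.276, 0.342 and 0.370 under the normexp correction. The offset of 50 units in that correction shrinks the SD of dim probes by construction.

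The steadiest of the brighter tested members were humanlincRNA0220+ and humanlincRNA1385-. The first lay between −1.88 and −1.54 on all arrays and the second between −0.66 and −0.31, with SDs of 0.117 and 0.118. Their surgery differences were −0.15 and −0.04, with standard errors of 0.13 and 0.14. Their partner probes were detected on 0 arrays.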

How the data were processed

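Per the file headers, the authors measured each spot of 8 single-colour arrays with Agilent Feature Extraction 11.0.1.1, which wrote a background-subtracted, detrended processed intensity in scanner units. Well-above-background, saturation and outlier flags were deposited as 0 or 1, per the file headers. The deposited table of the authors gives log2 values, and the steps behind them are not stated in the headers or labels. Its columns had slopes of 0.945 to 0.991 and correlations of at least 0.9957 with the log2 scanner values, so its scale is log2. All columns had a median of 4.93, so they share a centre, by a step that is not stated. The authors' table served only as an alternative. With it the members' median surgery difference was −0.189, the same as with quantile normalization.

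Here the log2 processed intensity was averaged over unflagged spots (26 to 70 spots per array were flagged and none was saturated) and the array's 75th percentile over noncontrol probes, 143 to 254 units, was subtracted. Each array had 62939 spots, 61500 of them noncontrol, for 60930 probes. Of these, 15 negatives and 1 probe flagged on every array were set aside. Every humanlincRNA probe had 1 spot. The 35782 probes well above background on at least 4 of 8 arrays were fitted with limma 3.58.1 (lmFit, eBayes, two-sided) in R 4.3.3, with Benjamini-Hochberg adjustment and a threshold of 0.05. Counts used Python 3.11.15 and pandas 2.3.3. The fit was tested on simulated data.

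The members, lists and tests were chosen with earlier results of these data known. Named probes were the 5 per direction with the smallest surgery p whose groups did not overlap, since none passed, the 5 brightest, the 3 per direction with the smallest row p, the 3 most and the 2 least variable, the last among the brighter tested members. Correlations between banded and sham arrays of one number, as deviations from group means over all tested probes, were −0.65 to −0.053. All 4 of these pairs join opposite slide rows, so the values cannot show whether the numbers pair the mice. Alternatives were other scalings, normexp with an offset of 50 units, the authors' table, other detection limits, blocks, averaged arrays, array weights and leaving out arrays.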

Additional observations from a re-analysis of the deposited data

Results flagged for a closer look

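Within a surgery group, 4 of the 56 groups of levels examined held an array far from the other 3 by Dixon's ratio. Chance flags about 1 in 20 such groups where they are unselected and independent. The named members were chosen from these same values and share the arrays, so the count cannot be set against that rate. For humanlincRNA2296+ sham 1 was lowest at 6.69, with the next array at 7.63. For humanlincRNA2199+ sham 1 was lowest at 6.52, with the next at 7.37. Sham 1 is the sham array that lies in row 2 of the slide. For humanlincRNA0966- banded 1, the banded array in row 1, was highest at −1.21, with the next at −2.69. For humanlincRNA0691+ banded 3 was highest at −2.72, but the next array stood at −2.78, so the gap is small in size.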

How the results depend on the processing

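The members' median surgery difference changed sign without a filter (0.013). Each named member kept the sign of the difference it was named for under the alternatives run. Other estimates could change sign. The surgery estimate of humanlincRNA0966-, −0.90, was 0.099 with close pairs as a block. The remaining probes' median, 0.0047, was −0.021 with quantile normalization. The count of called members for surgery, 0, became 17 with array weights and 9 without banded 1 and sham 1, with 3079 and 3839 over all probes. Leaving out any 1 array gave 0 members and 0 to 2 probes (2 without banded 1, 1 without banded 2). The 8 members at an unadjusted p under 0.05 and higher in banded hearts became 3 with normexp, 15 without a filter, 5 with detection on all 8 arrays, 15 with the row as a term, 15 with close pairs as a block, 5 with close arrays averaged and 4 to 8 without 1 array (4 without banded 2 or sham 1, 5 without sham 2). The 35 lower members became 17 with normexp, 22 with the row, 19 with close pairs as a block, 9 averaged, 97 with weights and 13 to 49 without 1 array (18 without banded 2, 21 without banded 3, 13 without sham 4). With the replicate number as a block, 0 members were called, 5 were higher and 26 lower at that p, and the median was −0.171; the block changed no call. The members' median of −0.17 became −0.015 with normexp, 0.013 without a filter, −0.032 with close pairs as a block and −0.21 to −0.13 without 1 array. It was −0.145 with the row as a term, −0.126 with close arrays averaged, −0.189 with quantile normalization and −0.225 with array weights. For slide row, 15 members and 7035 probes became 4 and 1426 with close pairs averaged, and 8 to 17 and 4616 to 6402 without 1 array (8 members each without banded 1 or sham 2). Members detected on at least 4 arrays, 363, became 654 under the positive-and-significant flag. The causes of these shifts were not tested.

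Single members kept direction and side of the threshold in 199 of 206 surgery values and 45 of 60 row values. The other 7 surgery values kept direction and passed the threshold, all with array weights or without banded 1 and sham 1. Of the row values 14 lost the threshold and 1 gained it. Normexp gave all 10 members named for surgery differences over 1.5 times smaller. Its offset of 50 units shrinks the log2 differences of dim probes by construction. A slide or scan block could not be fitted with 1 slide and 1 scan. Normexp on mean signals was not run, as the files hold median signals, on which it was run, chosen after seeing the data. Signal near background limits the levels of undetected members.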
